A study of Mus musculus with 6 samples.

Results

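Heparan sulfate proteoglycans and the enzymes that build, sulfate and trim their chains were examined in salivary glands of mouse embryos that had been kept in culture with TGF-β1 or untreated. The set held 36 named genes, of which 34 were measured, each by 1 probe set, among 19505 genes in all; Ndst1 and Glce were not analysed here. Each gene was taken from the platform annotation by its symbol. TGF-β1 is a cytokine whose receptors act on Smad transcription factors. The groups were 3 arrays of TGF-β1-treated glands (TGF-β1 1 to 3) and 3 arrays of untreated glands (controls 1 to 3), all taken at a stage written as T13 and cultured for 72 hours before RNA extraction. No strain, gland type, dose of TGF-β1 or pooling of glands is stated in the sources used. It is also not stated that the 3 samples of a group are separate cultures or animals, so every p-value reflects the spread among these 6 arrays, which may be technical.

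Heparan sulfate is a long sugar chain attached to a few core proteins at the cell surface (syndecans, glypicans) or in the basement membrane (perlecan, agrin). Chains are polymerised in the Golgi, then sulfated at defined positions, and the sulfate pattern sets which growth factors bind. In the embryonic mouse submandibular gland, heparan sulfate is known to hold and present FGF10, and 3-O-sulfated chains and heparanase are known to take part in branching.

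Of the 34 measured genes, 4 fell with TGF-β1 in a limma fit that weights each array by its reliability (adjusted p under 0.05 over all genes, called passing here), 0 rose and 30 did not pass. The 4 were Sulf2, an extracellular sulfatase that removes 6-O-sulfates, Sdc1, the main syndecan of epithelia, Hs6st2, a 6-O-sulfotransferase, and Hs3st1, a 3-O-sulfotransferase. They were lower by 1.12 to 0.57 on the log2 scale. In the same fit 6.88% of all genes passed, 3.45% higher and 3.44% lower, against 11.8% of the 34, a difference of few genes that was not tested. At an unadjusted p under 0.05, 10 of the 34 and 20.5% of all genes were reached. The median difference was -0.0094 over the 34 genes and 0.0054 over all genes. None of the 4 passed in the unweighted fit of the 6 arrays, where 0 of all 19505 genes did (389 genes, none of the 34, at an unadjusted p under 0.05), nor without control 3 and TGF-β1 3, where 2.59% of genes did.

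Promoter sequence is shown for Sulf2 and Sdc1, the passing genes with the largest differences, and for Sdc4, the syndecan with the largest difference the other way. These are the 250 bases before the outermost annotated start, from RefSeq on GRCm38.p6, 5′ to 3′ on the gene's strand. They lie at chr2:166155684-166155933 on the minus strand for Sulf2, chr12:8771146-8771395 on the plus strand for Sdc1 and chr2:164443189-164443438 on the minus strand for Sdc4. Capitals mark the GC box GGGCGG, bound by Sp1-type factors, and the Smad box CAGAC, each on either strand.
Sulf2: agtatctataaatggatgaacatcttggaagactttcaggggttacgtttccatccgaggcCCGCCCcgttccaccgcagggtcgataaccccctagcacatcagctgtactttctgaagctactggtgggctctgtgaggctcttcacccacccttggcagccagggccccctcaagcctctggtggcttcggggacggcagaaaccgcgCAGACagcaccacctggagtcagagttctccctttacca
Sdc1: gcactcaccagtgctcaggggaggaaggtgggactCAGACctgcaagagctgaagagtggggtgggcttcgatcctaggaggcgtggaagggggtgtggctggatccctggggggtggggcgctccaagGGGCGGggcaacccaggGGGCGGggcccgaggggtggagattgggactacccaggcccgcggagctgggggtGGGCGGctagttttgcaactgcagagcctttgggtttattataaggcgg
Sdc4: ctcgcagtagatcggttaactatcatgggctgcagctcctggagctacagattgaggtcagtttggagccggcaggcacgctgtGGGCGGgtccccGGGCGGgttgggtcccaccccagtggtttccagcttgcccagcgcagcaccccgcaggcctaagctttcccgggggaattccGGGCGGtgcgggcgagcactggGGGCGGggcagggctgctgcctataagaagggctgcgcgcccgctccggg
In these windows Sulf2 had 1 GC box and 1 Smad box, Sdc1 had 3 GC boxes and 1 Smad box, and Sdc4 had 4 GC boxes and 0 Smad boxes. The window of another annotated start of Sulf2, not shown, held 0 GC boxes and 0 Smad boxes. Hs3st1 and Hs6st2, which also fell, had windows only at starts other than the outermost, and these held 0 Smad boxes. Windows of Extl2, Hpse2, Hs3st3a1, Ndst2 and Sdc3, which did not pass, held at least 1 Smad box each. No capitalised motifs overlapped. Over the same stretch of all 32851 annotated starts, 32.7% held a GC box and 42.2% a Smad box. A match therefore describes only the letters, and binding was not measured. The AP-1 motif TGANTCA (6.75% of all) was in none of the 3, and the TATA motif TATAAA (12.4%) was in Sulf2, once. A promoter entry was found for 26 of the 34 genes.

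Control 3 stood apart from the other arrays. Its correlation with them over all genes was 0.550 to 0.601, against 0.948 to 0.990 among the other 5, and the interquartile range of its values was 2.05 against 3.17 to 3.26. It was the lowest of the 6 arrays for 17 of the 34 genes and the highest for 12. The array weights were 4.29, 2.33 and 0.398 for TGF-β1 1 to 3 and 1.65, 4.52 and 0.0338 for controls 1 to 3. The weighted differences therefore rest mostly on 4 arrays, and most of all on TGF-β1 1 and control 2. Over 12 markers of gland epithelium the mean log2 value on control 3 was 7.55, against 8.96 to 10.27 on the other 5 arrays, but single markers differed in this. Epcam, an adhesion molecule of epithelia chosen after the values were seen, was at 10.11, 10.10 and 10.27 in TGF-β1 1 to 3, against 9.63, 8.93 and 6.40 in controls 1 to 3. Aqp5, a water channel of secretory cells also chosen afterwards, was at 9.38, 9.33 and 9.40 in TGF-β1 1 to 3, against 8.33, 8.25 and 9.12 in controls 1 to 3, with control 3 the highest of the controls. The deposited table gives no detection call, and Ndst4, Hs3st5, Sulf1 and Hpse lay under the lower quartile of all genes on at least 4 arrays.

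**Figure D1:**
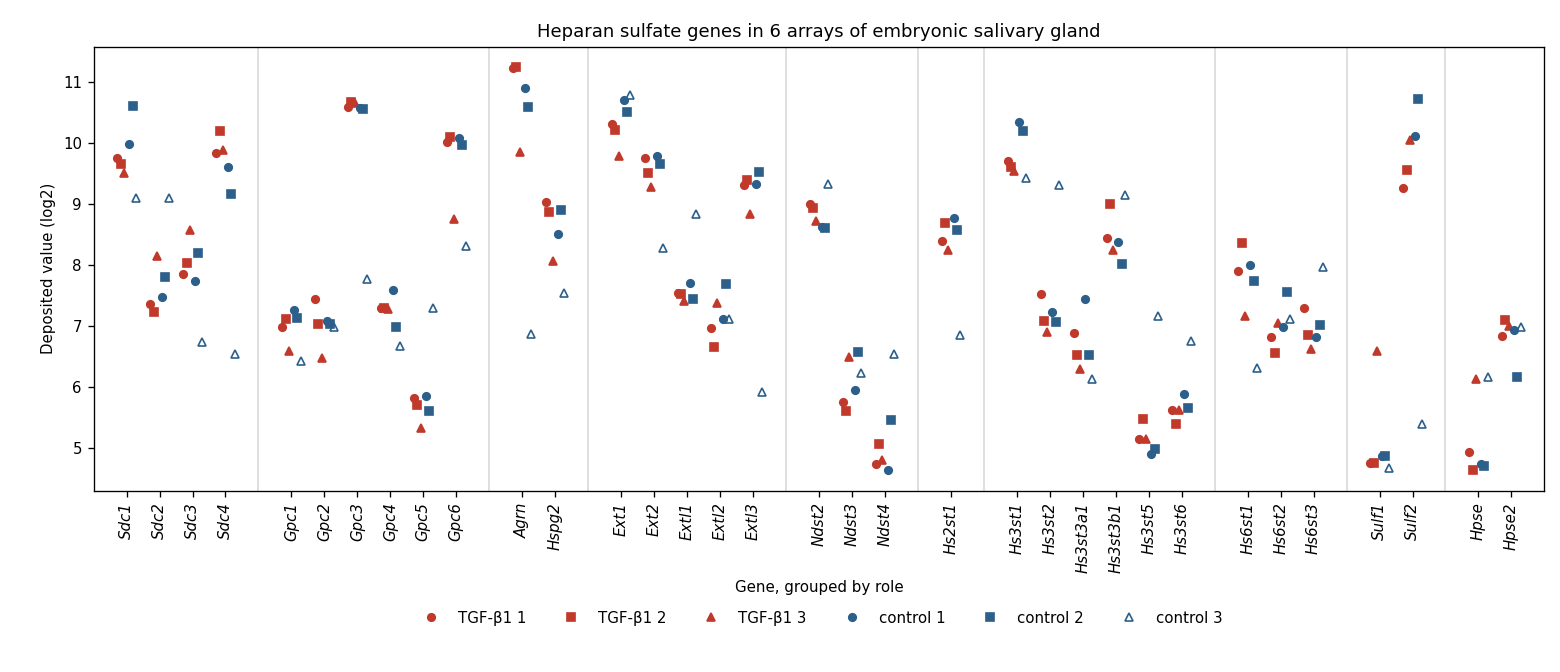
Deposited log2 value (y axis) of each of the 34 genes (x axis, grouped by role) on each array, TGF-β1 arrays in red and controls in blue, with control 3 as open triangles. Control 3 is the lowest array for 17 genes and the highest for 12; levels of different genes are not comparable, since each has its own probes.

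Of the 4 syndecans, which are transmembrane proteoglycans, 1 fell and 3 did not pass. Sdc1 was at 9.75, 9.65 and 9.51 in TGF-β1 1 to 3, against 9.98, 10.60 and 9.10 in controls 1 to 3. Every TGF-β1 array lay below controls 1 and 2 and above control 3. Sdc1 fell by 0.72 ± 0.18 on the log2 scale (SE, limma with array weights, adjusted p = 0.0326), a 1.65-fold difference. Without control 3 and TGF-β1 3 it differed by -0.59 (limma, adjusted p = 0.231). With 1 array left out Sdc1 did not pass, and the difference was -0.39, -0.34 and -0.26 without TGF-β1 1, 2 and 3, -0.15 without control 1 and 0.16 without control 2. Without control 1 or control 2, the weights cannot tell which of the controls that remain deviates. Control 3 then counts about as much as the other control left, so these values largely reflect control 3. Sdc4, a syndecan of focal adhesions, was at 9.83, 10.20 and 9.88 in TGF-β1 1 to 3, against 9.60, 9.16 and 6.55 in controls 1 to 3. Here the groups did not overlap on any array. The weighted difference of 0.69 ± 0.19 missed the threshold (limma, adjusted p = 0.0509; 0.177 without control 3 and TGF-β1 3), with a 95% interval of 0.28 to 1.10.

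Sdc2, a syndecan of mesenchyme, was at 7.36, 7.23 and 8.14 in TGF-β1 1 to 3, against 7.48, 7.80 and 9.09 in controls 1 to 3. The groups overlapped, and its weighted difference was -0.36, with an interval of -0.74 to 0.01. Sdc3, best known from nerve, was at 7.86, 8.03 and 8.57 with TGF-β1, against 7.73, 8.20 and 6.74 in the controls. Its difference was -0.11 in the weighted fit and 0.60 in the unweighted one, and control 3 was its lowest array.

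The glypicans, which are anchored to the membrane by a lipid, had the smallest spread of differences among the families of more than 3 genes. None of the 6 passed, and their weighted differences lay between -0.16 (Gpc1) and 0.21 (Gpc2). Gpc3, whose loss causes an overgrowth syndrome in humans, was at 10.59, 10.68 and 10.65 in TGF-β1 1 to 3, against 10.56, 10.56 and 7.77 in controls 1 to 3. The 5 arrays other than control 3 were nearly level, and its weighted difference was 0.08 ± 0.16 (interval -0.26 to 0.42). Gpc6 was at 10.01, 10.10 and 8.76 with TGF-β1, against 10.08, 9.96 and 8.32 in the controls. TGF-β1 3 and control 3 were both low for Gpc6, and the difference was -0.01 (interval -0.44 to 0.41).

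Gpc1 was at 6.99, 7.12 and 6.59 with TGF-β1, against 7.27, 7.13 and 6.43 in the controls. Gpc4 was at 7.29, 7.30 and 7.29 with TGF-β1, against 7.60, 6.99 and 6.68 in the controls. The TGF-β1 arrays of Gpc4 were nearly equal and lay between controls 1 and 2. Gpc2 was at 7.44, 7.04 and 6.48 with TGF-β1, against 7.08, 7.03 and 6.98 in the controls. Gpc5 was at 5.83, 5.70 and 5.33 with TGF-β1, against 5.85, 5.61 and 7.30 in the controls. Both overlapped, and both had opposite signs in the weighted fit (0.21 and 0.07) and the unweighted fit (-0.04 and -0.63).

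Neither core protein of the basement membrane passed. Agrn encodes agrin, which also organises the nerve-muscle synapse, and was at 11.23, 11.24 and 9.84 in TGF-β1 1 to 3, against 10.90, 10.59 and 6.88 in controls 1 to 3. TGF-β1 1 and 2 lay above every control, and TGF-β1 3 lay below controls 1 and 2. Its weighted difference was 0.50 ± 0.23 (limma, adjusted p = 0.245). Hspg2, which encodes perlecan, was at 9.03, 8.87 and 8.06 with TGF-β1, against 8.50, 8.90 and 7.54 in the controls, a difference of 0.13 (interval -0.27 to 0.53).

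The chain polymerases held no gene that passed. Ext1 and Ext2 together form the copolymerase that lengthens the chain. Ext1 was at 10.31, 10.20 and 9.78 in TGF-β1 1 to 3, against 10.70, 10.51 and 10.78 in controls 1 to 3. The groups did not overlap on any of the 6 arrays, and control 3 was near the other controls for this gene. Its difference was -0.32 ± 0.15 in the weighted fit (limma, adjusted p = 0.246) and -0.57 in the unweighted one. Ext2 was at 9.76, 9.51 and 9.27 with TGF-β1, against 9.79, 9.65 and 8.27 in the controls, a weighted difference of -0.03 and an unweighted one of 0.28.

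Extl2, a transferase that can end chain growth, was at 6.97, 6.66 and 7.38 with TGF-β1, against 7.12, 7.68 and 7.12 in the controls. TGF-β1 3 lay between the controls, and the weighted difference of -0.64 ± 0.18 did not pass (limma, adjusted p = 0.0628). Extl3, which adds the first glucosamine that commits a chain to heparan sulfate, was at 9.32, 9.39 and 8.83 with TGF-β1, against 9.33, 9.52 and 5.93 in the controls. Extl1, a related transferase, was at 7.55, 7.53 and 7.42 with TGF-β1, against 7.70, 7.44 and 8.84 in the controls. For both, the weighted difference was small (-0.14 and 0.01), the unweighted one was 0.92 and -0.50, and control 3 lay far from the other arrays.

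The enzymes that replace acetyl groups by sulfate open the way for all later sulfation, and 0 of the 3 measured passed. Ndst2 was at 9.0, 8.93 and 8.71 with TGF-β1, against 8.62, 8.61 and 9.32 in the controls. It was higher than controls 1 and 2 on each TGF-β1 array, by 0.34 ± 0.14 in the weighted fit (limma, adjusted p = 0.174). Ndst3 was at 5.76, 5.61 and 6.50 with TGF-β1, against 5.96, 6.58 and 6.23 in the controls, a difference of -0.66 ± 0.19 (limma, adjusted p = 0.0655). Ndst4 was at 4.75, 5.07 and 4.81 with TGF-β1, against 4.65, 5.47 and 6.54 in the controls. Ndst3 and Ndst4 both overlapped between groups. Hs2st1, which sulfates the uronic acid, was at 8.39, 8.68 and 8.25 with TGF-β1, against 8.77, 8.57 and 6.85 in the controls, a weighted difference of -0.13 and an unweighted one of 0.38.

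The 3-O-sulfotransferases add the rarest modification of the chain, and 1 of 6 fell. Hs3st1, which makes the binding site of antithrombin, was at 9.70, 9.60 and 9.53 in TGF-β1 1 to 3, against 10.34, 10.19 and 9.42 in controls 1 to 3. The TGF-β1 arrays lay close together, below controls 1 and 2 and just above control 3. Hs3st1 fell by 0.57 ± 0.14 (SE, limma with array weights, adjusted p = 0.028), a 1.49-fold difference. It differed by -0.62 without control 3 and TGF-β1 3 (limma, adjusted p = 0.0818) and by -0.37 in the unweighted fit (limma, adjusted p = 0.776). With 1 array left out it did not pass, and the difference was -0.15 without control 1 and -0.22 without control 2. In both fits control 3 counts about as much as the other control left.

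Hs3st3a1 and Hs3st3b1 are the 3-O-sulfotransferases known in the mouse submandibular gland for their link to FGF10 signalling, and neither passed. Hs3st3b1 was at 8.45, 9.0 and 8.25 with TGF-β1, against 8.38, 8.02 and 9.14 in the controls, a weighted difference of 0.50 ± 0.19 (limma, adjusted p = 0.158). Hs3st3a1 was at 6.89, 6.53 and 6.30 with TGF-β1, against 7.45, 6.54 and 6.14 in the controls, a difference of -0.04 (interval -0.54 to 0.46). Both groups overlapped for both genes.

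Hs3st6 was at 5.63, 5.39 and 5.62 with TGF-β1, against 5.89, 5.66 and 6.76 in the controls. Its groups did not overlap, but the gap was small, and the weighted difference was -0.17 (limma, adjusted p = 0.59). Hs3st2 was at 7.53, 7.08 and 6.91 with TGF-β1, against 7.23, 7.07 and 9.32 in the controls. Hs3st5 was at 5.15, 5.47 and 5.16 with TGF-β1, against 4.91, 4.99 and 7.17 in the controls. Both were highest in control 3, and their weighted differences (0.22 and 0.28) and unweighted ones (-0.70 and -0.43) had opposite signs.

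The genes that set 6-O-sulfation, which binding of many growth factors needs, included the other 2 that passed. Sulf2 was at 9.26, 9.56 and 10.04 in TGF-β1 1 to 3, against 10.11, 10.71 and 5.40 in controls 1 to 3. Each TGF-β1 array was lower than controls 1 and 2, TGF-β1 3 by little, while control 3 lay far below all others. Sulf2 fell by 1.12 ± 0.25 (SE, limma with array weights, adjusted p = 0.0191), a 2.17-fold difference. It differed by -0.999 without control 3 and TGF-β1 3 (limma, adjusted p = 0.0734) and by -1.01 in the weighted fit without control 3 (adjusted p = 0.0569). In the unweighted fit of 6 arrays the sign turned, to 0.88 (limma, adjusted p = 0.788). Leaving out single arrays gave -0.24, -0.39 and -0.62 without TGF-β1 1, 2 and 3, 1.35 without control 1 and 1.65 without control 2, none of them passing. The values above 0 come from fits in which control 3 counts about as much as the other control left.

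Sulf1, the second extracellular sulfatase of this kind, was at 4.76, 4.76 and 6.59 with TGF-β1, against 4.87, 4.87 and 4.68 in the controls. Only TGF-β1 3 lay above the lower quartile of its array, and the weighted difference was -0.0041 (interval -0.50 to 0.49). Hs6st2 was at 6.82, 6.57 and 7.06 with TGF-β1, against 6.99, 7.56 and 7.11 in the controls. TGF-β1 3 lay above control 1, so the groups overlapped. Hs6st2 fell by 0.66 ± 0.18 (SE, limma with array weights, adjusted p = 0.0487), a 1.57-fold difference just inside the threshold, and differed by -0.58 without control 3 and TGF-β1 3 (limma, adjusted p = 0.236) and by -0.40 in the unweighted fit. With 1 array left out it did not pass, and the difference was -0.18, -0.056 and -0.29 without TGF-β1 1, 2 and 3 and -0.30 without control 2. Without control 2, control 3 counts about as much as control 1.

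The related 6-O-sulfotransferases did not pass. Hs6st1 was at 7.91, 8.37 and 7.16 with TGF-β1, against 8.0, 7.73 and 6.31 in the controls, a weighted difference of 0.22 (interval -0.21 to 0.65). Hs6st3 was at 7.30, 6.86 and 6.63 with TGF-β1, against 6.82, 7.02 and 7.96 in the controls. Its weighted difference was 0.15 and its unweighted one -0.34, with control 3 the highest array.

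**Figure D2:**
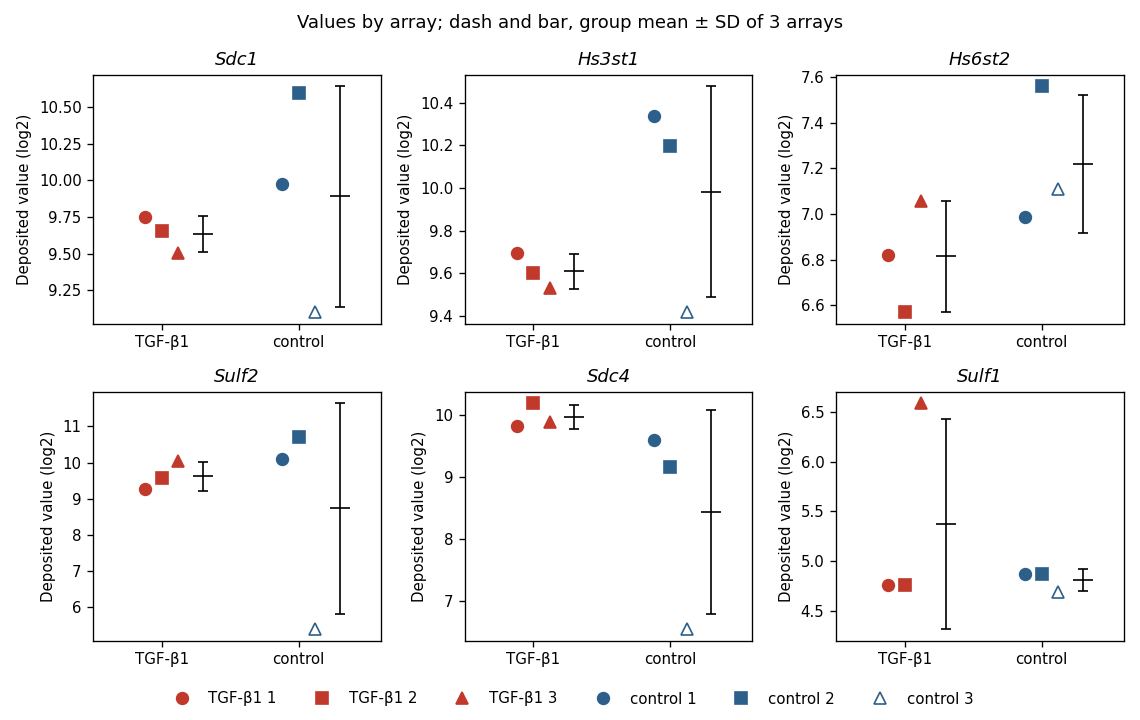
Deposited log2 values (y axis) by group (x axis) of the 4 genes that fell, of Sdc4 and of Sulf1, 1 symbol per array and the group mean ± SD of 3 arrays beside them. In Sdc1, Hs3st1 and Sulf2 the TGF-β1 arrays lie below controls 1 and 2 and above control 3 (open triangle), whose distance goes into the control SD; in Sdc4 they lie above all controls.

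Heparanase, the enzyme that cuts the chain, is encoded by Hpse, and the protein of its relative Hpse2 binds heparan sulfate without cutting it. Hpse was at 4.94, 4.64 and 6.14 with TGF-β1, against 4.74, 4.71 and 6.17 in the controls. The third array of each group was high and the rest lay under the lower quartile of their arrays. Hpse2 was at 6.84, 7.11 and 7.01 with TGF-β1, against 6.94, 6.17 and 6.98 in the controls. Control 2 alone was low for Hpse2, and the weighted difference of 0.56 ± 0.20 did not pass (limma, adjusted p = 0.126).

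Among the 30 genes that did not pass, the 95% intervals of the weighted differences reached from -1.08 (Ndst3) to 1.10 (Sdc4). Differences of up to about that size are not shut out for those 2 genes, and the median interval of the 34 genes extended 0.39 to either side. Leaving control 3 aside, the groups did not overlap for 4 of the 34 genes with TGF-β1 higher (11.8%, against 12.8% of all genes) and for 6 with TGF-β1 lower (17.6%, against 12.3% of all genes). With all 6 arrays, Sdc4 and Gpc3 did not overlap upwards and Ext1 and Hs3st6 downwards, 2 genes each way, where 5.8% and 5.78% of all genes did the same. The sign of the difference changed between the weighted and the unweighted fit for 13 of the 34 genes and between the weighted fit and the fit without control 3 and TGF-β1 3 for 2 (Gpc6 and Extl1, both near 0).

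**Figure D3:**
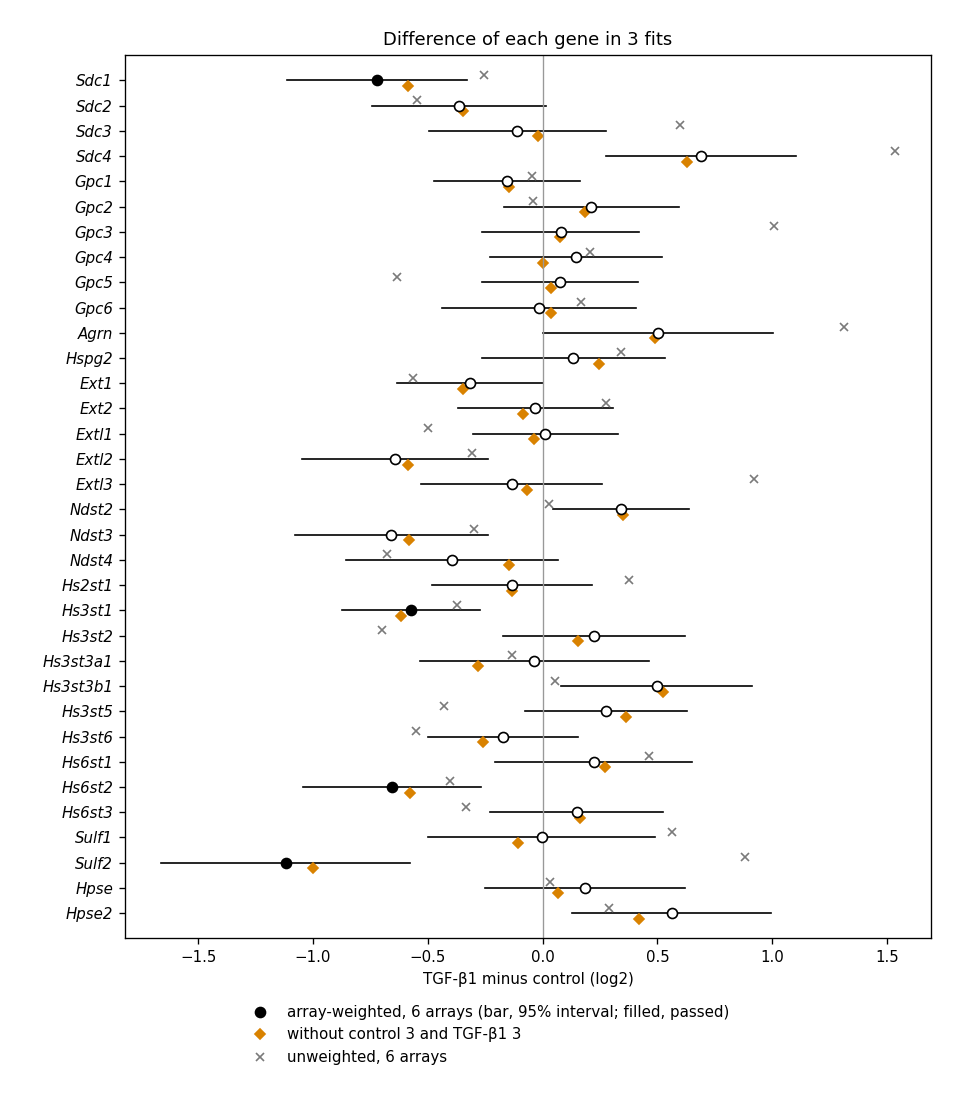
Difference of each gene, TGF-β1 minus control, on the log2 scale (x axis) in 3 fits. Circles with 95% intervals are the array-weighted fit (filled where passed), diamonds the fit without control 3 and TGF-β1 3, crosses the unweighted fit. Circles and diamonds mostly lie close together, but less so for Ndst4 (-0.40 and -0.15) and Hs3st3a1 (-0.04 and -0.28). Many crosses, which give control 3 full weight, move away, to the far side of 0 for 13 genes, Sulf2 among them.

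Other genes of the same chemistry were taken from 7 lists. Beside the list counts, 3.45% of all genes rose and 3.44% fell in the weighted fit, and no list was tested against these shares. The sugar and sulfate donors for chain building and their transporters moved in both directions: 2 of 10 measured genes rose, 2 fell and 6 did not pass. Both synthases of PAPS, the sulfate donor of every sulfotransferase, passed with opposite signs. Papss1 was at 10.00, 9.92 and 9.42 with TGF-β1, against 9.28, 9.05 and 6.94 in the controls, and rose by 0.84 ± 0.16 (limma with array weights, adjusted p = 0.00987). Papss2 was at 6.91, 7.11 and 7.75 with TGF-β1, against 7.72, 8.34 and 7.10 in the controls, and fell by 1.14 ± 0.20 (adjusted p = 0.00524). The Papss1 groups did not overlap, and those of Papss2 did.

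Ugdh, which makes the glucuronic acid donor, was at 9.22, 8.99 and 10.10 with TGF-β1, against 10.10, 10.27 and 7.12 in the controls. TGF-β1 3 was level with control 1 for Ugdh, and the gene fell by 1.01 ± 0.20 in the weighted fit (adjusted p = 0.00996). Slc26a2, a sulfate transporter of the cell membrane, was at 8.59, 9.10 and 7.77 with TGF-β1, against 8.0, 7.99 and 7.13 in the controls, and rose by 0.72 ± 0.19 (adjusted p = 0.0476). With control 3 and TGF-β1 3 left out, limma gave an adjusted p of 0.0263 for Ugdh, 0.0492 for Papss1, 0.0651 for Papss2 and 0.0736 for Slc26a2. In the unweighted fit Ugdh had the opposite sign (0.28).

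The enzymes of the linker that joins the chain to its core protein held no gene that passed of 7, and the one of smallest p was Fam20b, a xylose kinase, at 0.53 ± 0.15 (adjusted p = 0.0576). Of 8 measured genes of lysosomal breakdown, 1 fell and 7 did not pass. The one was Sumf1, which activates sulfatases by modifying their active site: it was at 6.4, 6.72 and 6.42 with TGF-β1, against 7.12, 7.39 and 7.51 in the controls. Its groups did not overlap on any array, and it fell by 0.81 ± 0.15 (limma, adjusted p = 0.0091; with 4 arrays 0.0993).

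Of 9 measured genes listed as other carriers, 2 fell and 7 did not pass. Col18a1, a collagen of basement membranes that carries heparan sulfate, was at 6.43, 6.48 and 7.64 with TGF-β1, against 7.46, 7.31 and 7.36 in the controls. TGF-β1 3 was above all controls, and Col18a1 fell by 0.83 ± 0.18 in the weighted fit (adjusted p = 0.017). Lrrtm4, a synaptic protein that binds heparan sulfate proteoglycans rather than carrying the chain itself, was at 6.77, 6.75 and 6.37 with TGF-β1, against 7.93, 8.77 and 6.76 in the controls. Control 3 lay with the TGF-β1 arrays, and Lrrtm4 fell by 1.80 ± 0.21 (adjusted p = 7.85e-04). Both also passed without control 3 and TGF-β1 3 (limma, adjusted p = 0.0301 for Col18a1 and 0.0334 for Lrrtm4). None of 9 partners and shedding factors of syndecans and glypicans passed, and the one of smallest p, Gipc1, a scaffold protein, differed by 0.53 ± 0.19 (adjusted p = 0.137).

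Chondroitin and dermatan sulfate use the same linker but other enzymes. Of 15 such enzymes measured, 5 fell, 0 rose and 10 did not pass. Dsel, a dermatan sulfate epimerase, was at 7.94, 7.75 and 8.42 with TGF-β1, against 8.88, 9.06 and 6.30 in the controls, and fell by 1.09 ± 0.17 (adjusted p = 0.00351). Chst11, a 4-O-sulfotransferase, was at 7.75, 8.11 and 7.48 with TGF-β1, against 8.67, 8.97 and 7.72 in the controls, and fell by 1.03 ± 0.17. Chsy3, a chondroitin polymerase, was at 6.63, 6.87 and 6.48 with TGF-β1, against 7.34, 7.74 and 7.50 in the controls, and fell by 0.93 ± 0.16. Only for Chsy3 among these 3 did the groups not overlap on any of the 6 arrays. The list's median difference was -0.44 in the weighted fit, -0.38 without control 3 and TGF-β1 3 (where 1 of the 5 passed, Dsel) and -0.06 unweighted. Of 11 chondroitin and keratan sulfate core proteins none passed. The one of smallest p, Ncan, a proteoglycan of brain, differed by -0.50 ± 0.15 (adjusted p = 0.0731).

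**Figure D4:**
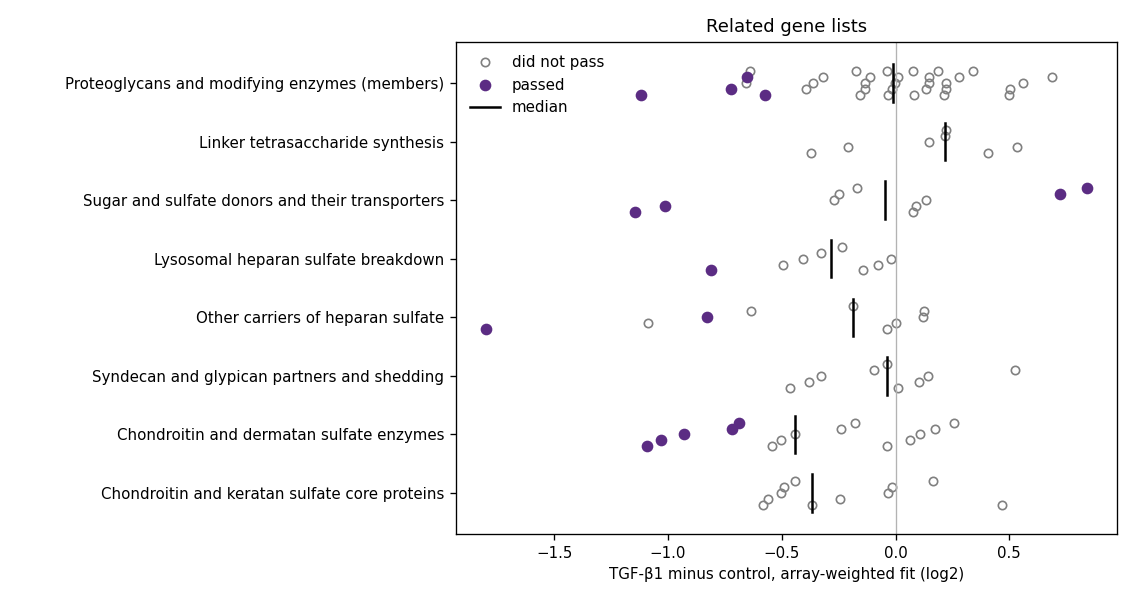
Differences in the array-weighted fit, TGF-β1 minus control, on the log2 scale (x axis) for the 34 genes and 7 related lists (y axis), 1 circle per gene, filled where passed, with the list median as a bar. Passing genes lie on both sides of 0 among the donors and only below 0 among the chondroitin and dermatan sulfate enzymes.

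Markers of cell types moved between the same arrays, in the weighted fit where 3.45% of all genes rose and 3.44% fell. Of 12 markers of gland epithelium, 5 rose (Bhlha15, Elf5, Aqp5, Sox10 and Epcam), 0 fell and 7 did not pass. The list did not move together: among the 7, Cdh1, Krt8 and Krt18 had differences above 0 (0.69, 0.52 and 0.39), and Krt14, Krt19, Krt5 and Krt7 below 0 (-0.59, -0.56, -0.49 and -0.37). The mean log2 value of the 12 was 9.52 to 10.27 in the TGF-β1 arrays, against 7.55 to 9.18 in the controls. Of 9 mesenchymal markers, 2 fell (Twist1 and Prrx1), with means of 8.10 to 8.27 in the TGF-β1 arrays, against 8.35, 8.67 and 7.38 in controls 1 to 3. Of 7 neural markers, 3 rose (Tubb3, Elavl4 and Stmn2), with means of 6.74 to 7.01 in the TGF-β1 arrays, against 6.34 to 6.61 in the controls. Of 5 markers of smooth muscle and myoepithelium, 2 rose (Acta2 and Cnn1), with means of 9.56 to 9.89 in the TGF-β1 arrays, against 7.38 to 9.77 in the controls. Of 8 endothelial markers 1 fell (Kdr), with means of 5.71 to 6.44 in the TGF-β1 arrays, against 5.86 to 6.59 in the controls. These lists did not move together either. Mesenchymal Foxf1 (0.36) and Col1a2 (0.0034) and endothelial Emcn (0.33), Cdh5 (0.13) and Tek (0.00087) lay above 0 without passing. Neural Fabp7 (-0.25) and Phox2a (-0.03) and, in the smooth muscle and myoepithelium list, Trp63 (-0.24) lay below 0 without passing. None of 6 leukocyte markers passed (TGF-β1 6.79 to 7.47, control 6.84 to 7.49), nor of 6 cartilage markers (TGF-β1 5.36 to 5.64, control 5.49 to 6.82), nor of 6 skeletal muscle markers (TGF-β1 5.95 to 6.13, control 5.90 to 7.34). Control 3 had the lowest control mean for gland epithelium, mesenchyme and smooth muscle, and the highest for the other marker lists. Without control 3 and TGF-β1 3, Epcam no longer passed and 4 epithelial markers still did, as did Kdr, while none of the mesenchymal, neural or smooth muscle markers passed. No value of the table is at 0. The part of cell makeup in the differences above was not tested, and in whole glands fewer cells of a type and less RNA per cell cannot be told apart.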

How the data were processed

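Total RNA (6 µg per array) from cultured salivary glands was hybridised to Affymetrix arrays, per the labels' protocols. The authors deposited 1 log2 value per probe set and array; the submitters' processing notes name RMA, without a version. They were used as deposited. RMA usually leaves arrays with a common distribution, which control 3 does not share.

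Of 22206 probe sets, 19572 had 1 gene symbol, 0 several and 2634 none. The brightest probe set stood for each of 19505 genes (67 were left out). Differences were fitted in R 4.3.3 with limma 3.58.1: lmFit with arrayWeights (REML) and eBayes, two-sided, Benjamini-Hochberg over 19505 genes. The estimation of the weights stopped before its convergence tolerance, and weights are treated as known, which makes p-values too small. The members, the lists and the choice of the weighted fit were made with earlier results of these data known, so no list test was run. Every member could be named, and up to 3 passing genes of a list per direction, or the one of smallest p; marker genes were named after their values were seen. Alternatives were equal weights, gene-by-gene weights, fewer arrays, other scalings, a filter on dim genes, other uses of probe sets, another prior, a replicate block and other thresholds. The fit was also run on simulated data with independent noise and array spreads set from the fitted weights. Those data lacked an array with a narrower distribution like control 3, so they do not check the p-values given here. Arrays carry no read depth, so their number limits the precision. The arrays' genome build is not stated; only the promoter sequences have one.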

Additional observations from a re-analysis of the deposited data

How the results depend on the processing

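The 4 falls are weak calls, and their number depends on the processing. They were 0 with equal weights, without control 3 and TGF-β1 3, with quantile normalization, with median centring, with all probe sets, and at an adjusted p under 0.01; 1 (Hs3st1) with gene-by-gene weights; and 7 with the dimmest genes left out. The genes that rose, 0 in the report, were 5 with that filter, 4 with the replicate block and 1 (Sdc4) with probe sets averaged, with a trended and robust prior or at an adjusted p under 0.10. With the trended and robust prior 5 genes fell, although Hs3st1 no longer passed. At an adjusted p under 0.10, Extl2 and Ndst3 fell as well (limma with array weights, adjusted p = 0.0628 and 0.0655). The filter kept 28 of the 34 genes, of which 12 passed, beside 33.4% of 13003 genes, a difference that was not tested. Leaving out each array in turn gave 0 falls every time, a median difference of -0.20 to 0.065, 0 to 544 passing genes and 0 to 7 passing genes of the 7 lists. Without control 1 or control 2, the weights cannot tell control 3 from the other control left. Both then count about equally, so those fits do not check whether the calls depend on control 1 or control 2. Passing genes in all, 1342 in the report, were 0 with equal weights, 874 with gene-by-gene weights, 505 without control 3 and TGF-β1 3, 486 with quantile normalization, 283 with median centring, 4349 with the filter, 524 with all probe sets, 2502 with the block, 538 at 0.01 and 2127 at 0.10. Passing list genes, 12 in the report, were 0, 5, 7, 2, 27, 5 and 19 with equal weights, without the 2 arrays, with quantile normalization, median centring, the filter, all probe sets and the block. Deviations of same-numbered arrays from their group means correlated at -0.07, -0.0078 and -0.05. No TGF-β1 array correlated best with the control of its own number. Control 3 lies so far from the other controls that it dominates the control deviations, so the correlations cannot decide whether replicate numbers pair the samples. The cause of these shifts was not tested.

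Signs turned for these log2 differences: with equal weights Sdc3 0.60, Gpc2 -0.042, Gpc5 -0.63, Gpc6 0.17, Ext2 0.28, Extl1 -0.50, Extl3 0.92, Hs2st1 0.38, Hs3st2 -0.70, Hs3st5 -0.43, Hs6st3 -0.34, Sulf1 0.56 and Sulf2 0.88; without control 3 and TGF-β1 3 Gpc6 0.034 and Extl1 -0.036; with gene-by-gene weights Extl1 -0.038 and Sulf1 0.0059; with quantile normalization Sdc3 0.0090, Gpc4 -0.00026, Gpc5 -0.011 and Extl1 -0.056; with median centring Sdc3 0.11, Gpc4 -0.16, Gpc5 -0.071 and Extl1 -0.14; with the filter Gpc6 0.028, Ext2 0.031 and Hs3st3a1 0.21; with all probe sets Sdc3 0.016, Gpc4 -0.0070, Extl1 -0.059 and Sulf1 0.00054; with the replicate block Gpc6 0.078 and Extl1 -0.0027. With 1 array left out, differences that turned sign ranged as follows: Agrn -0.30 to 2.42, Ext2 -0.38 to 0.69, Extl1 -0.74 to -0.040, Extl2 -0.52 to 0.053, Extl3 -0.20 to 1.69, Gpc1 -0.47 to 0.23, Gpc2 -0.32 to 0.25, Gpc4 -0.29 to 0.46, Gpc5 -0.82 to 0.031, Gpc6 -0.67 to 0.83, Hpse -0.55 to 0.78, Hpse2 -0.019 to 0.38, Hs2st1 -0.42 to 0.77, Hs3st2 -0.93 to 0.20, Hs3st3a1 -1.01 to 0.40, Hs3st3b1 -0.14 to 0.41, Hs3st5 -0.82 to 0.37, Hs6st1 -0.44 to 1.00, Hs6st3 -0.37 to 0.24, Hspg2 -0.025 to 0.90, Ndst2 -0.014 to 0.34, Ndst3 -0.65 to 0.17, Ndst4 -1.14 to 0.26, Sdc1 -0.58 to 0.16, Sdc2 -1.09 to 0.25, Sdc3 -0.014 to 0.72, Sulf1 -0.11 to 0.81, Sulf2 -1.01 to 1.65. Of the other genes that fell, Hs3st1 ranged from -0.76 to -0.15 and Hs6st2 from -0.59 to -0.056. All these ranges include the fits without control 1 or control 2, where control 3 counts about as much as the other control left.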
